A study of Mus musculus with 15 samples.

Results

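The mitochondrial ribosomal protein genes are the nuclear genes whose mouse symbols start with Mrpl (large subunit) or Mrps (small subunit) followed by a number. They were chosen by that symbol pattern in both deposited expression tables, with a mean of at least 1 FPKM (fragments scaled to transcript length and library depth) in each table. The choice gave 78 genes, 49 Mrpl and 29 Mrps, of the 53088 gene entries that both tables hold. All 78 symbols that match the pattern passed the minimum, so none lay just outside it. The genes nearest to it were Mrpl57 (mean 6.65 FPKM) and Mrps25 (8.97 FPKM) in MC38, and Mrpl1 (4.86 FPKM) and Mrpl23 (6.98 FPKM) in B16-F10.

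Mitochondria carry a small genome of their own and translate its messages on a dedicated ribosome. The RNAs of that ribosome are made in the organelle, whereas each of its proteins is encoded in the nucleus, made in the cytosol and imported. Many of the proteins descend from the bacterial ribosome and others were added during evolution. The products of this ribosome are core membrane subunits of the respiratory chain and the ATP synthase, so its supply ties the nuclear and the mitochondrial genome together.

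RNA-seq of polyadenylated RNA was made from 15 libraries of 2 mouse tumour cell lines. MC38, a colon adenocarcinoma line that the tissue label calls melanoma, had 4 wild-type libraries and 3 libraries of cells with stable overexpression of mouse Ssbp4 after transduction with a retroviral vector that also carries EGFP. No MC38 group with the empty vector is named, so the vector and Ssbp4 cannot be told apart. B16-F10, a melanoma line, had 4 libraries labelled wild type and 4 labelled knockout. The knockout cells received Cas9 and several Ssbp4 guides by electroporation, and the protocol names a control guide to an intergenic site on chromosome 2. The labels do not say whether knockout cells were a clone or a pool. Nor do they say that replicates are independent cultures, so the p-values rest on variation among libraries that may be only technical. All groups grew in the same medium with serum, and no ages, treatments or further alleles are given.

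Ssbp4, which encodes a transcriptional cofactor that binds LDB proteins, moved in the direction of the labels. It was at 16.3 ± 2.05 FPKM in wild-type and 534 ± 63.5 FPKM in overexpressing MC38 cells (SD, n = 4 and 3). In B16-F10 it was at 34.5 ± 2.37 and 22.1 ± 2.29 FPKM in wild-type and knockout cells (SD, n = 4 and 4). A large part of the transcript thus remained in the knockout cells (log2 fold change -0.62). Its level does not show whether the protein was lost. A two-sided exact permutation test of the 2 means gave p = 0.0286 in each line, the smallest that either design allows. The low values of the tables imply depths of 32.2 to 48.6 M fragments a library. As a mean over all libraries of a line, all 7 melanocyte markers examined reached 1 FPKM in B16-F10, and 0 of 7 did in MC38, although Mitf was at 0.875 to 1.53 FPKM in the MC38 wild-type libraries. By the same measure 2 of 8 epithelial markers reached 1 FPKM in MC38, and they moved in opposite directions. Krt8 was at 2.73 to 3.74 FPKM in wild-type and 8.65 to 10.7 FPKM in overexpressing libraries (1.31 on the log2 scale, limma adjusted p = 2.6e-06), and Krt18 was at 2.64 to 3.54 and 0 to 0.162 FPKM (-1.99, limma adjusted p = 1.55e-07). Epcam was at 0.658 to 1.05 FPKM in wild type and listed at 0 in all 3 overexpressing libraries, and Cdx2 was listed at 0 throughout. The 8 summed to 6.68 to 8.86 and 8.96 to 10.8 FPKM. The 4 fibroblast markers summed to 81.9 to 87.5 FPKM in wild-type and 385 to 393 FPKM in overexpressing MC38 libraries, led by Dcn and Pdgfra, with 0 of the 4 listed at 0 throughout. The part of these markers in the MC38 results was not tested. In bulk RNA, fewer cells of a type and less RNA per cell cannot be told apart.

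Stretches of 6 promoters are shown because they show the starts of genes that moved in opposite directions in MC38. Mrpl24, Mrps26, Mrpl9 and Mrpl53 had lower transcript levels in overexpressing cells, and Mrpl45 and Mrpl18 had higher ones. The 6 were chosen after their values were seen. Each is the 130 bases just before the annotated start, 5′ to 3′ on the gene's strand, from RefSeq on GRCm38.p6. Capitals mark matches to 2 motifs searched on both strands, CCGGAAG, the core that ETS factors such as GABPA bind, and the site of NRF1, which is GCGCA, any base and GCGC. Both factors are known activators of nuclear genes for mitochondrial proteins.
Mrpl24: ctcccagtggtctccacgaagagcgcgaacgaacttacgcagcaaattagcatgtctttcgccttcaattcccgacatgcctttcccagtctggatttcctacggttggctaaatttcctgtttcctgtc
Mrps26: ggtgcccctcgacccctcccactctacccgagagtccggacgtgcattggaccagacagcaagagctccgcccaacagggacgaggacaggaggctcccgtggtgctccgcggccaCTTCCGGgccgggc
Mrpl9: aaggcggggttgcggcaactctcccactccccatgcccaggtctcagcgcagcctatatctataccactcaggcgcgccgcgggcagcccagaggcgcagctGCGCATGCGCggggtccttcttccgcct
Mrpl53: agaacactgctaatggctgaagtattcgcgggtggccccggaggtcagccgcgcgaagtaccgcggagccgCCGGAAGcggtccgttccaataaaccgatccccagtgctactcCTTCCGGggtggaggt
Mrpl45: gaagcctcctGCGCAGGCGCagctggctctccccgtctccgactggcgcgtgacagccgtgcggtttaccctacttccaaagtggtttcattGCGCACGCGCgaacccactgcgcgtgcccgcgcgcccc
Mrpl18: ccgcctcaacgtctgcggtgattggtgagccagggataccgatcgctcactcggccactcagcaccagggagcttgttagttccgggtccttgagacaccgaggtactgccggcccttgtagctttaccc
These stretches are chr3:87919414-87919543 (plus strand) for Mrpl24, chr2:130563627-130563756 (plus) for Mrps26 and chr3:94443206-94443335 (plus) for Mrpl9. They are chr6:83108978-83109107 (plus) for Mrpl53, chr11:97315586-97315715 (plus) for Mrpl45 and chr17:12916092-12916221 (minus) for Mrpl18. Mrpl24, which fell, and Mrpl18, which rose, have neither motif in the stretch shown. Mrpl53 has 2 ETS matches on opposite strands, and Mrpl45, which rose, has 2 NRF1 matches.

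RefSeq promoters of 300 bases, 250 before and 50 after the start, were found for 69 of the 78 genes. The ETS core lay in 37.7% of them, against 22.8% of promoters of genes tested in MC38 and 9.93% of all promoters. The NRF1 site lay in 18.8%, 12.8% and 5.19%, and AAGATGGC, the core of the YY1 site, in 17.4%, 5.91% and 3.19%, in the same order. The E-box CACGTG, which MYC with its partner MAX can bind, lay in 7.25%, 12.2% and 8.09%. In MC38 the median log2 fold change of the 26 genes with an ETS match was -0.073, and of the others -0.14. For the 13 genes with an NRF1 match it was -0.12, and -0.14 for the others. For the 12 genes with a YY1 match it was -0.084, against -0.14, and for the 5 with an E-box -0.20, against -0.13. Over all genes tested with a promoter, the medians with and without a match were -0.042 and 0.0014 for ETS and -0.025 and -0.0079 for NRF1. They were -0.031 and -0.0087 for YY1 and -0.025 and -0.0084 for the E-box. Motifs of SP and NFY factors and the box that TBP binds were searched as well. SP sites lay in 49.3%, 71.9% and 38.2%, in the order above, so the group was below the genes tested. NFY sites lay in 39.1%, 44.2% and 41.1%, and the TBP box in 7.25%, 7.86% and 15.7%. The group's medians with and without a match were -0.14 and -0.126 for SP and -0.108 and -0.146 for NFY. For the TBP box both were -0.135. A match is only a match of letters in this window.

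In the MC38 cells, overexpression came with lower levels of many of these transcripts and with higher levels of a few. Of the 78 genes, 32 fell, 5 rose and 41 did not pass (limma on log2(FPKM + 1), adjusted p under 0.05 over all genes tested). The strongest falls were those of Mrpl24, to 72.0% of its wild-type level, and of Mrps26, to 74.0%. The strongest rise was that of Mrpl18, to 123%. Log2 fold changes ran from -0.46 to 0.29, so no gene of the group changed by 1.5 times.

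Nearly as many genes changed elsewhere. Of all 10748 genes tested in MC38, 47.5% passed, against 47.4% of the mitochondrial ribosomal genes, so the share that passed was that of the background. The direction differed, since 41.0% of the group fell where 23.6% of all genes did, and 6.41% rose where 23.9% of all genes did. The median log2 fold change was -0.14 for the group and -0.0088 for all genes, and 85.9% of the group against 51.7% of all genes had a value below 0. The groups of libraries did not overlap for 29 genes that were lower and 6 that were higher in overexpressing cells, against 25.1% and 25.5% of all genes. Among the 7032 tested genes within the same range of FPKM, 1664 rose and 1932 fell, with a median of -0.024. Chromosomes that carry genes of the group differed, with medians over all tested genes from -0.12 (chromosome 16) to 0.055 (chromosome 4). Centred per chromosome, a setting chosen after the data were seen, 34 of the 78 genes fell and 5 rose, with a median of -0.147. Of all genes in that fit, 22.9% fell and 23.7% rose.

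**Figure D1:**
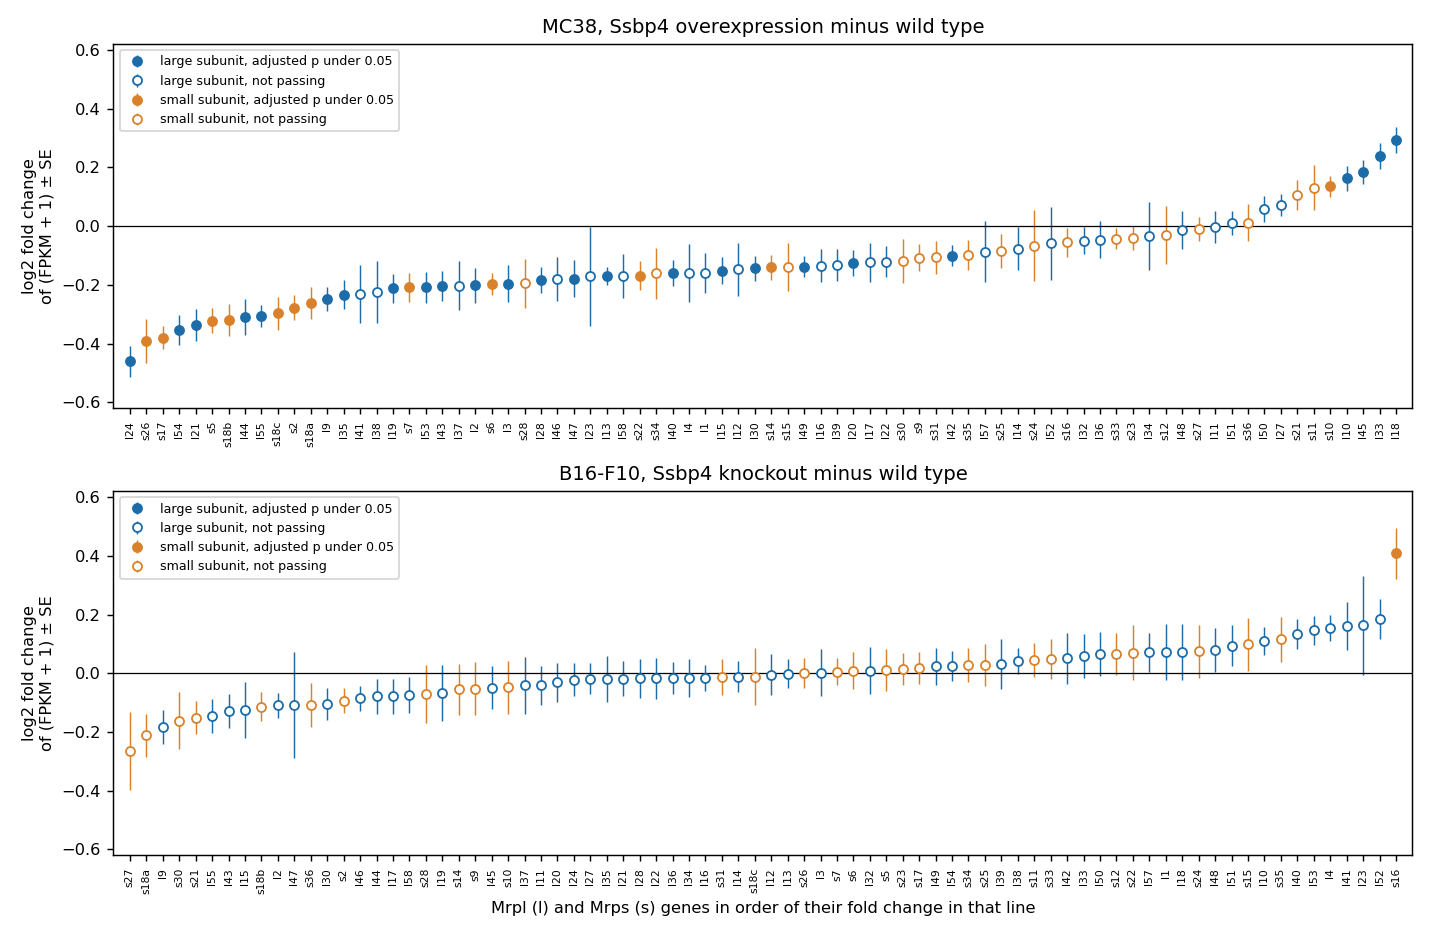
Log2 fold change of (FPKM + 1) with its standard error for each of the 78 genes, ordered within each line, as overexpression minus wild type in MC38 (top) and knockout minus wild type in B16-F10 (bottom). Blue marks large-subunit and orange small-subunit symbols, without their letters Mrp, and filled points passed an adjusted p of 0.05. In MC38 most filled points lie below 0, with 5 above, and in B16-F10 only Mrps16 is filled.

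Among large-subunit genes with a bacterial counterpart, 14 of 30 fell and 3 rose, with a median of -0.15. These are 46.7% and 10%, against 23.6% and 23.9% of all genes tested. Mrpl24, the counterpart of a bacterial protein that binds ribosomal RNA early in assembly, was at 36.2, 35.3, 33.6 and 35.2 FPKM in the wild-type libraries and at 23.5, 27.4 and 24.8 FPKM in the overexpressing ones. Every overexpressing library lay below every wild-type library. The mean went from 35.0 ± 1.08 to 25.2 ± 1.97 FPKM (SD, n = 4 and 3), a log2 fold change of -0.46 (SE 0.052, limma adjusted p = 5.63e-05).

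Mrpl21, another RNA-binding protein shared with bacteria, was at 95.3, 98.9, 87.7 and 91.7 FPKM in wild-type libraries and at 69.6, 71.5 and 80.4 FPKM in overexpressing ones. Again the groups did not overlap, although the third overexpressing library came nearer to wild type than the other two (log2 fold change -0.34, limma adjusted p = 7.27e-04). Mrpl9, the counterpart of the long bacterial protein L9, fell from 49.1 ± 1.86 to 41.2 ± 1.45 FPKM (-0.25, limma adjusted p = 7.40e-04; SD, n = 4 and 3). Mrpl55 fell from 26.9 to 21.5 FPKM (-0.31). Its wild-type libraries spanned only 26.5 to 27.6 FPKM.

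The 3 rises in this class included the largest of all. Mrpl18, a protein related to the bacterial 5S RNA binder L18, was at 50.1, 48.3, 46.2 and 52.5 FPKM in wild-type cells and at 60.0, 59.9 and 61.8 FPKM in overexpressing cells. The lowest overexpressing library exceeded the highest wild-type one, with a log2 fold change of 0.29 (SE 0.044, limma adjusted p = 3.97e-04). Mrpl33, a small protein of the large subunit, was at 41.8, 39.1, 40.5 and 38.6 FPKM in wild type and 45.4, 50.1 and 46.8 FPKM with overexpression (0.24, limma adjusted p = 0.00143). Mrpl10, which anchors the stalk where translation factors dock, was at 39.8, 44.5, 41.8 and 40.3 FPKM and then at 46.3, 47.2 and 46.5 FPKM (0.16, limma adjusted p = 0.00955). Neither of these 2 genes had overlapping groups.

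Mrpl12, the repeated stalk protein that meets those factors and also binds the mitochondrial RNA polymerase, did not move with Mrpl10. It was at 121, 161, 143 and 156 FPKM in wild-type and at 142, 124 and 126 FPKM in overexpressing libraries, with overlapping groups (-0.15, limma adjusted p = 0.203). Without wild-type library 1, its lowest, it passed as lower (-0.23, limma adjusted p = 0.0109).

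Of the 19 large-subunit genes without a bacterial counterpart, 7 fell and 1 rose, with a median of -0.16. That is 36.8% lower and 5.26% higher, against 23.6% and 23.9% of all genes tested. Mrpl54 was at 62.2, 56.5, 58.8 and 64.6 FPKM in wild-type and at 45.4, 46.2 and 49.7 FPKM in overexpressing libraries (-0.36, limma adjusted p = 2.91e-04). Mrpl44, which has the fold of an RNA-cutting enzyme and is mutated in a human cardiomyopathy, was at 16.7, 16.4, 19.4 and 18.5 FPKM and then at 13.8, 14.7 and 13.8 FPKM (-0.31, limma adjusted p = 0.00235). Both genes were lower in every overexpressing library than in any wild-type one. Mrpl53 fell less, from 30.8 to 26.5 FPKM (-0.21, limma adjusted p = 0.00797).

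The rise in this class was that of Mrpl45, which sits at the exit of the nascent chain and ties the ribosome to the inner membrane. It was at 33.3, 32.3, 33.5 and 32.2 FPKM in wild type and 36.9, 35.8 and 39.5 FPKM with overexpression (0.18, limma adjusted p = 0.00442). Mrpl42, the most abundant of all 78 transcripts in MC38, was at 196, 187, 186 and 189 FPKM and then at 174, 172 and 184 FPKM, close to but below wild type (-0.10, limma adjusted p = 0.0404). That call did not hold without wild-type libraries 1, 3 or 4 (adjusted p = 0.0836, 0.0512 and 0.0756 in limma) or overexpressing libraries 1 or 2 (0.130 and 0.152). Centred on the genes of its chromosome, where all tested genes had a median of -0.12, Mrpl42 was at 0.0015.

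**Figure D2:**
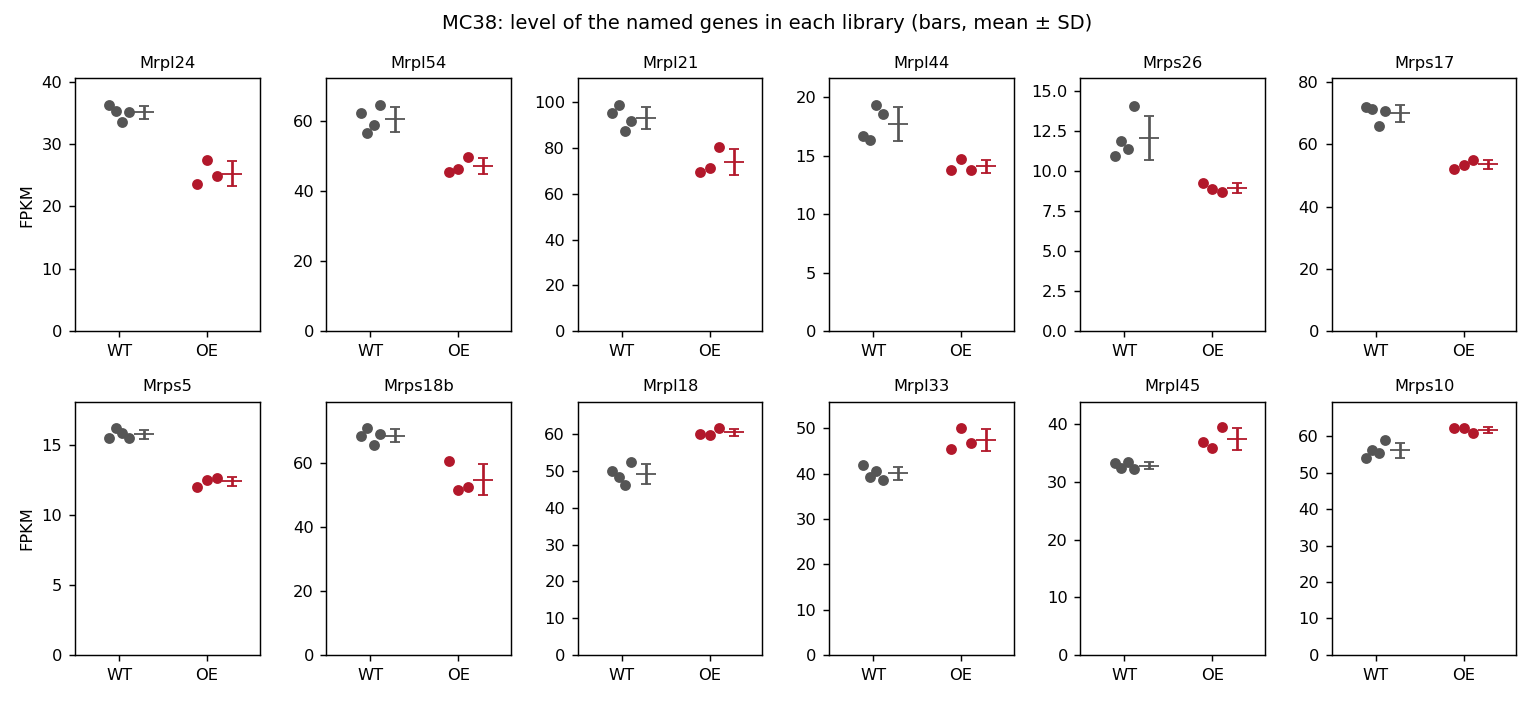
FPKM of 12 genes in each MC38 library, wild type (WT, grey, 4 libraries) and Ssbp4 overexpression (OE, red, 3 libraries), with mean and SD at the right of each group and every axis from 0. The 8 genes from Mrpl24 to Mrps18b lie lower and the last 4, Mrpl18, Mrpl33, Mrpl45 and Mrps10, higher with overexpression, with no overlap between groups in any panel.

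Small-subunit genes with a bacterial counterpart had 7 of 15 members lower and 1 higher, with a median of -0.14. The shares were 46.7% and 6.67%, against 23.6% and 23.9% of all genes tested. Mrps17, a core RNA-binding protein, was at 71.8, 71.5, 66.0 and 70.7 FPKM in wild type and 52.1, 53.4 and 55.1 FPKM with overexpression. The fall, to 76.5% of wild type (-0.38, SE 0.040, limma adjusted p = 3.32e-05), was steady over the overexpressing libraries. Mrps5, a protein near the entry of the messenger RNA, was at 15.5, 16.2, 15.9 and 15.5 FPKM and then at 12.0, 12.5 and 12.7 FPKM (-0.32, limma adjusted p = 1.57e-04). Mrps6, the most abundant small-subunit transcript, fell from 145 ± 5.29 to 126 ± 3.58 FPKM (-0.20, limma adjusted p = 0.00175; SD, n = 4 and 3).

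Mrps10, a protein of the head of the small subunit, was the small-subunit gene that rose. It was at 54.1, 56.2, 55.4 and 58.9 FPKM in wild-type and at 62.2, 62.3 and 60.8 FPKM in overexpressing libraries (0.14, limma adjusted p = 0.0117), so its groups did not overlap either. Mrps12, the decoding-site protein, stood at 25.9 ± 3.18 and 25.3 ± 3.04 FPKM (limma adjusted p = 0.821; SD, n = 4 and 3).

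Among the 14 small-subunit symbols without a bacterial counterpart 4 fell and 0 rose (28.6% lower, against 23.6% of all genes), with a median of -0.11. At an unadjusted p under 0.05 in limma 5 were lower and 0 higher, 35.7% of the 14 against 54.3% of all genes. Mrps26 was at 10.9, 11.9, 11.4 and 14.1 FPKM in wild type and 9.25, 8.85 and 8.66 FPKM with overexpression (-0.39, limma adjusted p = 0.00191). The groups did not overlap, and wild-type library 4 was the highest.

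Mammals have 3 relatives of the bacterial protein S18, and all of them fell. Mrps18b was at 68.6, 71.0, 65.9 and 69.2 FPKM and then at 60.6, 51.5 and 52.7 FPKM (-0.32, limma adjusted p = 8.65e-04). Mrps18c, which takes the place of the bacterial protein, was at 47.5, 45.9, 52.8 and 45.5 FPKM and then at 37.1, 38.2 and 41.0 FPKM (-0.30, limma adjusted p = 0.00169). Mrps18a, which despite its name sits in the large subunit, was at 60.9, 69.2, 67.1 and 67.2 FPKM and then at 54.3, 51.8 and 59.0 FPKM (-0.26, limma adjusted p = 0.00298). None of the 3 had overlapping groups.

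Mrps30, also a large-subunit protein by position, was at 13.3 ± 0.803 and 12.2 ± 1.38 FPKM (limma adjusted p = 0.220; SD, n = 4 and 3). Mrps36, now known as a subunit of the 2-oxoglutarate dehydrogenase complex and not of the ribosome, was at 37.8 ± 1.71 and 38.2 ± 3.73 FPKM (limma adjusted p = 0.904; SD, n = 4 and 3).

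Of the 32 falls, 22 passed whichever library was left out, as did all 5 rises. Without overexpressing libraries 1, 2 and 3, respectively 8, 6 and 4 of the falls did not pass, and without any one wild-type library 3 did not. The 10 genes concerned had log2 fold changes between -0.20 and -0.10 with all libraries. They were Mrpl2, Mrpl3, Mrpl15, Mrpl20, Mrpl30, Mrpl40, Mrpl42, Mrpl47, Mrps14 and Mrps22, with adjusted p of up to 0.152 in limma.

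The comparison of the subunits asked whether the genes of the large and the small subunit moved alike. In MC38, 21 of 49 large-subunit genes fell and 4 rose, and 11 of 29 small-subunit genes fell and 1 rose. Lower were 42.9% of the large subunit, 37.9% of the small subunit and 23.6% of all genes tested. Higher were 8.16%, 3.45% and 23.9%, in the same order. The medians were -0.15 and -0.12, a difference of -0.033. Between single libraries of 1 group, that difference had an SD of 0.031, pooled over both groups. In either line this SD is for single libraries and is not the standard error of a comparison of groups, which was not computed. The difference between the subunits was slightly above 0 without wild-type library 2 (0.0016) and without overexpressing libraries 1 (0.0021) or 2 (0.013). Placed by position in the ribosome, with Mrps30 and Mrps18a in the large subunit and Mrps36 left out, the medians were -0.15 for 51 genes and -0.12 for 26.

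**Figure D3:**
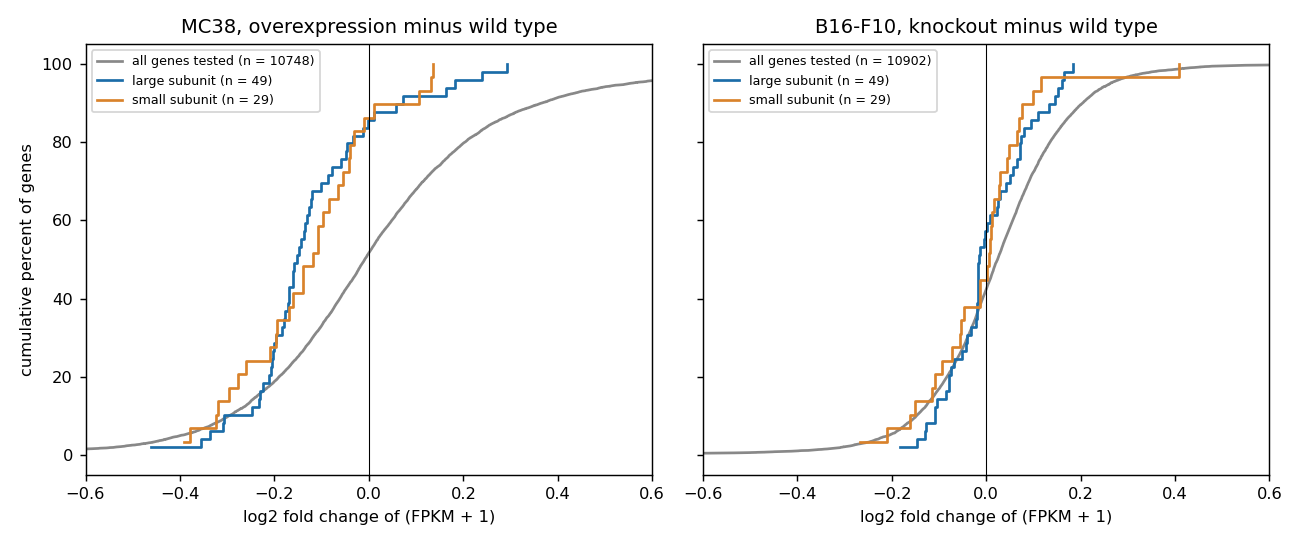
Cumulative percent of genes by log2 fold change of (FPKM + 1) for all genes tested (grey, 10748 in MC38 and 10902 in B16-F10), the 49 large-subunit genes (blue) and the 29 small-subunit genes (orange). In MC38 (left) the large and small subunit reach 85.7% and 86.2% at 0 where all genes reach 51.7%, and in B16-F10 (right) they reach 57.1% and 44.8% where all genes reach 42.3%. Values beyond 0.6 in either direction are outside the axis.

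Summed over genes, the large subunit gave 2070 ± 59.3 FPKM in wild-type and 1898 ± 22.5 FPKM in overexpressing MC38 cells, or 91.7% (SD, n = 4 and 3). The small subunit gave 1131 ± 33.7 and 1024 ± 18.9 FPKM, or 90.5%. For either subunit the highest overexpressing library (1913 and 1045 FPKM) lay below the lowest wild-type one (2014 and 1093 FPKM). The ratio of the 2 sums was 1.83 ± 0.022 in wild-type and 1.85 ± 0.027 in overexpressing cells, with overlapping libraries.

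Each overexpressing library was lower by itself. The median difference from the wild-type mean over the large-subunit genes was -0.13, -0.17 and -0.14 on the log2 scale in libraries 1, 2 and 3, and over the small-subunit genes -0.097, -0.13 and -0.13. Of the 78 genes, 42, 47 and 48 lay below all wild-type libraries in these 3 libraries, and 8, 8 and 12 lay above all wild-type ones. This count for single libraries was not made over all genes. A stricter measure asks that all 3 libraries lie outside the wild-type ones. By it 29 of the 78 genes lay below every wild-type library and 6 above. Of all genes tested, 25.1% lay below and 25.5% above by this stricter measure.

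**Figure D4:**
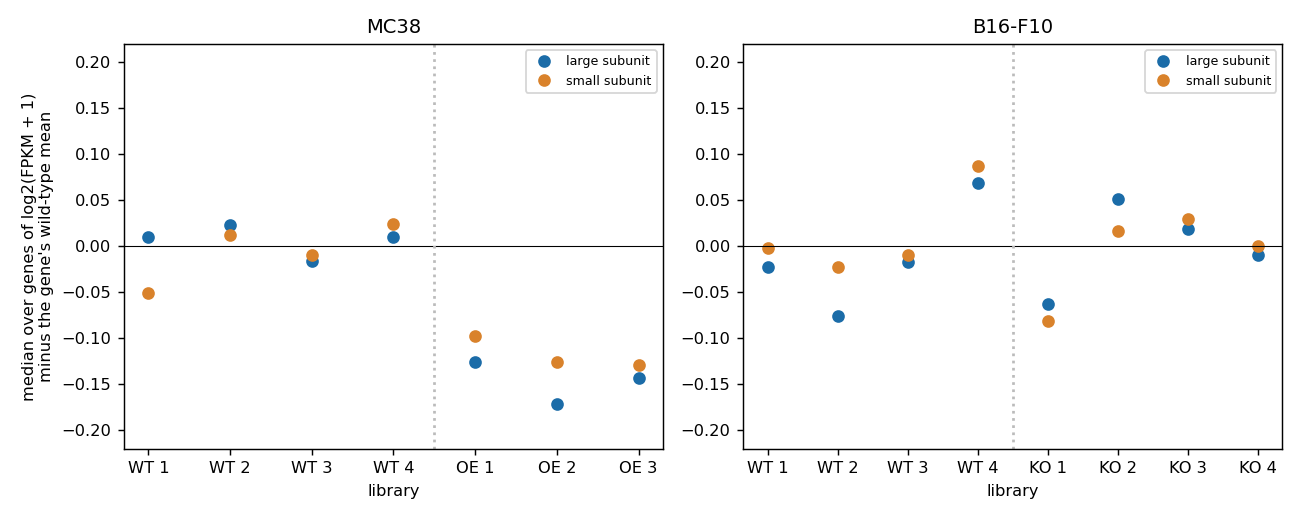
Median over genes of log2(FPKM + 1) minus the gene's wild-type mean, for the large (blue) and small (orange) subunit in each library of MC38 (left) and B16-F10 (right). The 3 MC38 overexpressing libraries lie between -0.17 and -0.097, below all 4 wild-type libraries, whereas the B16-F10 knockout libraries lie on both sides of 0, as the wild-type ones do.

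Lower values in MC38 were found among short and long, weak and strong genes of the group. Across the 78 genes Spearman's rho of the log2 fold change was -0.047 with the length of the longest transcript and -0.035 with mean FPKM, where genes share the libraries and are not replicates. Genes with transcripts up to 1 kb had a median of -0.078 in the group and -0.064 among all genes. At 1 to 2 kb the medians were -0.17 and -0.037, at 2 to 4 kb -0.13 and -0.0059, and over 4 kb -0.15 and 0.0074. By the median, short transcripts thus lay near all short transcripts, and the longer ones of the group lay lower than all genes of their length. Of the 17 short genes of the group, 82.4% were below 0, against 59.2% of all genes up to 1 kb. Of these 17, 29.4% fell and 0 rose, against 26.3% and 16.05%.

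Mitoribosome proteins whose symbols lack Mrp were examined as well. In MC38, 3 of 5 fell and 0 rose. The counts of this and the following lists stand against 23.6% of all genes tested that fell and 23.9% that rose. Chchd1 fell from 80.0 ± 3.39 to 61.7 ± 5.87 FPKM (-0.37) and Aurkaip1 from 47.5 ± 1.89 to 36.5 ± 1.52 FPKM (-0.37; SD, n = 4 and 3). Dap3, a GTP-binding protein of the small subunit, fell from 57.2 to 50.9 FPKM (-0.17, limma adjusted p = 0.0281). Its call did not hold without wild-type libraries 1 or 2 (adjusted p = 0.0522 and 0.0666 in limma) or overexpressing libraries 1 or 2 (0.0753 and 0.121). Ptcd3 and Gadd45gip1 were at -0.020 and 0.10 (limma adjusted p = 0.624 and 0.496).

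Genes for assembly of the ribosome and modification of its RNA had 7 of 29 tested members lower (24.1%) and 1 higher (3.45%), with a median of -0.050. The share that fell was near that of all genes, and the 27.6% that passed in either direction was below the 47.5% of all genes. Trub2, a pseudouridine synthase homologue, fell from 14.7 to 10.5 FPKM (-0.46), and Noa1, a GTPase of small-subunit assembly, from 26.8 to 19.9 FPKM (-0.41). Gtpbp6, which acts on the large subunit, fell from 8.29 to 5.61 FPKM (-0.47, limma adjusted p = 0.0161; 0.0572 without overexpressing library 3). Mrm1, a methyltransferase of the large ribosomal RNA, rose from 4.54 to 5.87 FPKM (0.31, limma adjusted p = 0.0120; 0.0536 without overexpressing library 1).

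Among 17 translation factors 4 fell (23.5%, near the share of all genes) and 1 rose, with a median of -0.075, and 29.4% passed in either direction. The recycling factor Mrrf fell from 15.0 to 10.7 FPKM (-0.45) and the rescue factor Mtres1 from 26.0 to 20.1 FPKM (-0.36). Taco1, which promotes translation of cytochrome oxidase subunit I, rose from 12.0 to 14.9 FPKM (0.29). The elongation factor Tufm was at 83.4 and 79.1 FPKM (limma adjusted p = 0.186).

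Transcription and maintenance of mitochondrial DNA had 6 of 9 genes lower and 1 higher, with a median of -0.21. The helicase Twnk fell from 15.7 to 11.4 FPKM (-0.43), the packaging and transcription factor Tfam from 37.6 to 28.4 FPKM (-0.39) and the polymerase Polrmt from 12.0 to 9.44 FPKM (-0.32). Polg2, the accessory subunit of the DNA polymerase, rose from 2.95 to 4.01 FPKM (0.35).

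Regulators of mitochondrial biogenesis had 4 of 8 tested genes lower and 1 higher. Myc fell from 183 ± 13.3 to 94.3 ± 2.80 FPKM (-0.94, limma adjusted p = 5.07e-07; SD, n = 4 and 3). Pprc1, a coactivator related to PGC-1, fell by 0.36 on the log2 scale, Nrf1 by 0.24 and Gabpa by 0.24. Yy1 rose (0.19).

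The transcripts of mitochondrial DNA had 2 of 15 members higher and 2 lower, with a median of 0.010. The 12S ribosomal RNA mt-Rnr1 rose from 49.5 to 65.2 FPKM (0.39, SE 0.095, limma adjusted p = 0.00657), while the 16S ribosomal RNA mt-Rnr2 was at 258 ± 45.9 and 238 ± 35.6 FPKM (limma adjusted p = 0.511; SD, n = 4 and 3). Polyadenylated RNA was selected, so ribosomal RNA is measured only in part. Messages of subunits that this ribosome makes included mt-Atp8, higher (1.16), and mt-Nd4l and mt-Nd3, lower (-0.58 and -0.57). The first 2 of these share bases with the next gene on mitochondrial DNA, and their values are uncertain for that reason.

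A further uncertain pair is Mrpl23, a protein at the exit tunnel, and the near-identical copy Mrpl23-ps1. In MC38 they were at 10.5 ± 2.25 and 25.1 ± 1.74 FPKM in wild-type cells and at 9.20 ± 2.09 and 22.1 ± 1.84 FPKM in overexpressing cells (SD, n = 4 and 3). The copy held 70.5% of the summed level in MC38 and 84.0% in B16-F10, so the level listed for Mrpl23 may depend on how the authors' counting divides shared reads.

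Of the 78 genes, 18 (23.1%) start within 1000 bases of a protein-coding gene on the other strand that runs away from them, against 11.5% of 9954 protein-coding genes tested, by GENCODE M21 on GRCm38. Partners of genes that fell in MC38 had values on either side of 0. Beside Mrpl30 (-0.14), Mitd1, whose start lies 66 bases away, rose by 0.63 (limma adjusted p = 8.58e-05). Beside Mrpl40 (-0.16), the histone chaperone gene Hira fell by 0.35. Beside Mrps18b, Ppp1r10 was at 0.11 (limma adjusted p = 0.0606). These pairs were chosen after their values were seen. Where a member and its partner overlap at their starts, reads can be told apart only if strand was used in the counting. That setting is not given in the sources used here.

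In B16-F10 cells the knockout came with little change in these genes. Of the 78, only Mrps16 passed, as higher, and 0 were lower (limma, adjusted p under 0.05), against 2.23% of all 10902 genes tested. Over all genes 145 (1.33%) were higher and 98 (0.899%) lower. With libraries rescaled to a common total the split over all genes was 226 and 83, and with median-of-ratios scaling 80 and 121. At an unadjusted p under 0.05 in limma, 6 of the 78 were higher and 6 lower, 15.4% in all, against 13.3% of all genes higher and 8.03% lower, 21.3% in all. The groups of libraries did not overlap for 3 genes that were higher and 6 that were lower, against 8.53% and 5.32% of all genes. The median was -0.0084 for the group and 0.024 for all genes, and with a common total the group's median was 0.0091.

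Mrps16, a bacterial-type protein of the small subunit that is mutated in a human respiratory chain disorder, was at 17.7, 17.4, 16.3 and 18.6 FPKM in wild-type and at 21.7, 26.7, 26.0 and 20.3 FPKM in knockout libraries. All knockout libraries were higher than all wild-type ones, libraries 2 and 3 most. The mean rose from 17.5 ± 0.933 to 23.7 ± 3.14 FPKM (SD, n = 4 and 4), a log2 fold change of 0.41 (SE 0.088, limma adjusted p = 0.0494). The gene lies on chromosome 14, where all 355 tested genes had a median of 0.16, and the other two genes of the group there, Mrpl52 and Mrpl57, were at 0.18 and 0.071. Centred on that chromosome, Mrps16 was at 0.26 and did not pass (limma adjusted p = 0.102). Nor did it pass without wild-type libraries 1 to 4 (adjusted p = 0.0764, 0.0743, 0.101 and 0.0945 in limma) or knockout libraries 1 to 3 (0.124, 0.158 and 0.152), while it did without knockout library 4 (0.0258). In MC38, Mrps16 was at 18.0 ± 0.717 and 17.3 ± 0.794 FPKM (-0.056, limma adjusted p = 0.369; SD, n = 4 and 3).

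The wild-type B16-F10 libraries fell into 2 pairs. On the first principal component of all genes, with 42.8% of the variance, libraries 1 and 2 lay at -9.43 and -10.4 and libraries 3 and 4 both at 17.8, with the knockout libraries between -7.81 and -1.91. Among the 78 genes, 34 were higher in both of libraries 3 and 4 than in both of 1 and 2, and 12 were lower, so 59.0% separated the pairs, against 72.2% of all genes. What sets the pairs apart is not given in the labels.

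The pairs decided several values. Mrpl47, a protein at the exit tunnel, was at 7.38 and 6.92 FPKM in wild-type libraries 1 and 2, at 13.2 and 12.5 FPKM in libraries 3 and 4, and at 8.87, 9.09, 8.46 and 9.01 FPKM in the knockout. The knockout libraries lay between the pairs. Its log2 fold change was 0.27 against libraries 1 and 2 alone (limma adjusted p = 0.0249), -0.49 against 3 and 4 alone (7.59e-04) and -0.11 against all (0.777). Mrps27, an RNA-binding protein of the small subunit, was at 18.7, 17.4, 26.9 and 26.9 FPKM in wild type and 18.0, 18.1, 18.6 and 17.9 FPKM in the knockout. It was the lowest gene of the group at -0.27 (limma adjusted p = 0.287), and at -0.54 against libraries 3 and 4 alone (1.74e-04). Mrpl47 and Mrps27 are given for the spread between pairs, and Mrpl47 was chosen after its values were seen.

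Counts followed the choice of control. Without wild-type libraries 3 and 4, 5 of the 78 genes were higher and 1 lower, and without libraries 1 and 2, 4 were higher and 14 lower. Over all genes these choices gave 1349 and 2805 calls, against 243 with all libraries. Without libraries 3 and 4, 6.41% of the group were higher and 1.28% lower, against 7.18% and 5.17% of all genes. Without libraries 1 and 2, 5.13% of the group were higher and 17.9% lower, against 15.6% and 10.2% of all genes. Mrps16 passed as higher against either pair alone (0.40 and 0.41, limma adjusted p = 0.0400 and 0.0239). No other gene of the group did so, and Mrpl47 passed in opposite directions.

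Other B16-F10 genes at the edges of the range did not pass. Mrps18a was at 59.1, 60.7, 48.0 and 54.3 FPKM in wild type and 45.7, 46.6, 47.9 and 50.6 FPKM in the knockout (-0.21, limma adjusted p = 0.147). The groups overlapped through wild-type library 3 and knockout library 4. It passed against wild-type libraries 1 and 2 alone (-0.32, limma adjusted p = 0.00948). Mrpl9 was at 43.3, 43.2, 49.9 and 48.4 FPKM and then at 41.7, 41.0, 41.0 and 38.5 FPKM, without overlap (-0.18, limma adjusted p = 0.122). Mrpl55 was at -0.15 (limma adjusted p = 0.184). Against wild-type libraries 3 and 4 alone, Mrpl9 and Mrpl55 passed as lower (-0.27 and -0.23, limma adjusted p = 0.00477 and 0.00809). Against libraries 1 and 2 alone neither passed.

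At the other end, Mrpl52 was at 54.9, 50.7, 49.4 and 59.4 FPKM and then at 56.4, 61.5, 65.5 and 60.4 FPKM (0.18, limma adjusted p = 0.168). Its groups overlapped through wild-type library 4 and knockout library 1. Mrpl23 was at 0.16 (limma adjusted p = 0.620) and Mrps35 at 0.12 (0.425). The stalk protein Mrpl12, the most abundant of the group in B16-F10, was at 122 ± 13.1 and 121 ± 1.32 FPKM (limma adjusted p = 0.977; SD, n = 4 and 4).

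The next most abundant, Mrpl51, was at 115, 113, 97.0 and 115 FPKM in wild type and 106, 123, 122 and 117 FPKM in the knockout (0.094, limma adjusted p = 0.479). The most abundant small-subunit transcripts, Mrps21 and Mrps33, were at 78.6 and 70.7 FPKM (limma adjusted p = 0.168) and at 69.7 and 72.2 FPKM (0.732). Mrps12, Mrps18b, Mrps18c, Mrps30 and Mrps36 did not pass (limma adjusted p = 0.642, 0.221, 0.959, 0.373 and 0.453), nor did Mrpl1, the least abundant (0.713).

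In B16-F10 the large-subunit median was -0.016 and the small-subunit median 0.0059, a difference of -0.022 (SD between libraries of 1 group 0.018, pooled over both groups) that was above 0 against either pair of controls alone (0.021 and 0.022). The large subunit summed to 2091 ± 79.8 and 2099 ± 65.7 FPKM and the small subunit to 1006 ± 40.4 and 992 ± 41.3 FPKM in wild-type and knockout cells (SD, n = 4 and 4). The ratio of large to small was 2.08 ± 0.014 in wild type and 2.12 ± 0.027 in the knockout. Its wild-type values ended at 2.091 and its knockout values started at 2.098, a gap of less than either SD.

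The other lists gave 0 calls in B16-F10 apart from Ppargc1a, the PGC-1 alpha coactivator of mitochondrial genes, which rose from 11.3 ± 0.645 to 17.0 ± 2.59 FPKM (0.54, limma adjusted p = 0.0408; SD, n = 4 and 4). Its call did not hold without any one wild-type library (adjusted p = 0.0524 to 0.0943 in limma) or without knockout libraries 1, 2 or 3 (0.129, 0.148 and 0.141). At an unadjusted p under 0.05 in limma there were 1 of 5 other subunits, 2 of 30 assembly genes, 0 of 17 translation factors, 1 of 9 genes of mitochondrial DNA, 2 of 9 regulators and 0 of 15 mitochondrial transcripts, against 21.3% of all genes. Myc was at 29.1 ± 4.74 and 29.5 ± 1.73 FPKM (limma adjusted p = 0.909; SD, n = 4 and 4).

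The 2 lines do not share libraries, and the perturbations run in opposite directions. Of the 32 genes that fell with overexpression in MC38, 20 were below 0 and 12 above 0 with knockout in B16-F10. Below 0 in B16-F10 were 52.6% of the 78 genes and 42.3% of all genes tested there. Of the 78 genes, 0 passed in both lines. Only Mrps16 passed in B16-F10, so this count says little about overlap. Neither the overlap nor the split of signs was counted over all genes tested in both lines. Across the 78 genes the fold changes of the 2 lines had Pearson's r of 0.17 and Spearman's rho of 0.23, given as a description over genes. Whether the fold change of any gene differed between the lines was not tested, since the tables were normalized separately.

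**Figure D5:**
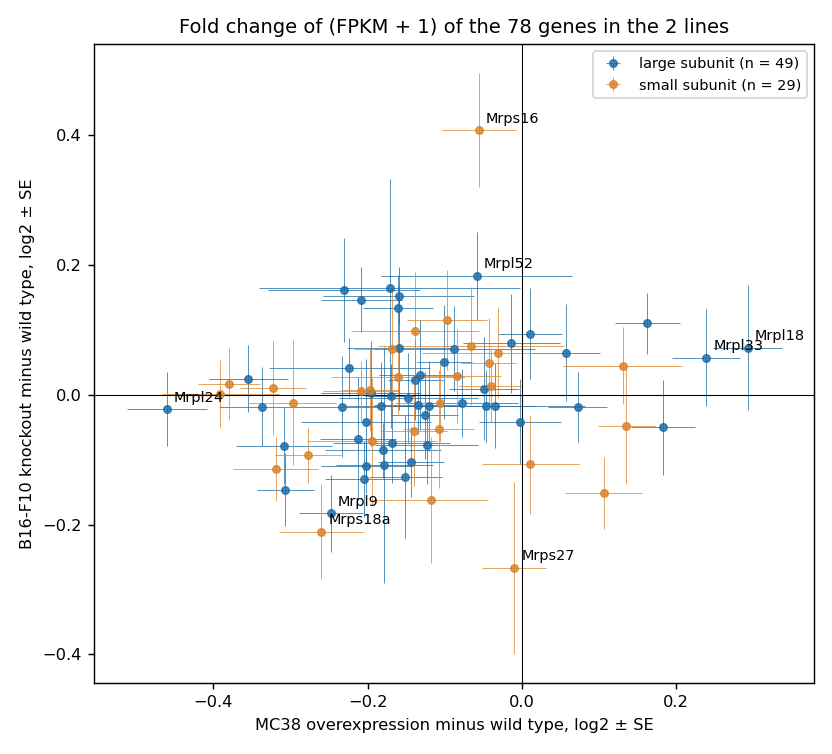
Log2 fold change of (FPKM + 1) of each of the 78 genes in MC38 (x axis, overexpression minus wild type) against B16-F10 (y axis, knockout minus wild type), with standard errors, large subunit in blue and small subunit in orange. Points spread along the x axis mainly below 0 and lie around 0 on the y axis, with Mrps16 highest at 0.41.

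Wild-type levels had a like order in the 2 lines, with Pearson's r of 0.68 and Spearman's rho of 0.67 over the log2 levels of the 78 genes. The median gene of the group was at 34.5 FPKM in MC38 and 33.7 FPKM in B16-F10, above the medians of 13.1 and 13.7 FPKM over all genes tested. Mrpl12 was among the 2 most abundant large-subunit transcripts in both lines. Levels from tables normalized separately are set side by side here without a test.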

How the data were processed

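Gene-level FPKM values were deposited by the authors in one table per cell line, with DESeq2 and the build GRCm39 named in the submitters' processing notes. The aligner, the counter and its strand setting are not stated. Libraries came from a stranded kit with selection of polyadenylated RNA, per the labels' protocols. Since FPKM are not counts, each line was fitted alone with limma 3.58.1 (R 4.3.3, trend) on log2(FPKM + 1) over genes with a mean of at least 1 FPKM, with Benjamini-Hochberg adjustment over all genes tested and a threshold of 0.05. The pseudocount of 1 understates changes of low genes. Ssbp4 was tested by exact permutation of the means. Script steps were tested on simulated data. Depth was estimated from the steps of low FPKM values, of which 82.7 to 87.2% lay within 0.1 of a whole fragment where chance gives 20%, so no counts were recovered.

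The genes, lists and naming rule were chosen with earlier results of these data known. Named were the extreme called genes of each subunit and line (the extreme genes where fewer than 2 were called), the 2 most abundant, those nearest the minimum, those with a special role and the extremes of each list. Genes named beyond the rule were chosen after their values were seen. Promoters came from RefSeq (GRCm38.p6), and chromosomes, lengths and neighbours from GENCODE M21 (GRCm38), by symbol. No 2 replicates agreed within sampling noise, with chi-square 5.71 to 49.2 times its degrees of freedom. Alternatives changed the pseudocount, the filter, the scaling, the variance model, library weights, a replicate block, single libraries, wild-type pairs and centring per chromosome. Figures were drawn with matplotlib 3.10.9.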

Additional observations from a re-analysis of the deposited data

Results flagged for a closer look

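Among the named genes, 59 groups of 4 libraries were examined for a single library far from the other 3, and 2 had one, where chance gives about 1 in 20. In wild-type B16-F10 cells, Mrpl23 was at 8.44 FPKM in library 1 and between 5.68 and 6.04 FPKM in the other 3 libraries. In the same group Mrpl51 was at 97.0 FPKM in library 3 and between 113 and 115 FPKM in the others.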

How the results depend on the processing

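In MC38 the count of lower genes was 32, and 21 with a replicate block, and the median of -0.142 was -0.116 with a common total. Of all genes tested, 23.6% were lower in the fit reported and 17.4% with the block. The difference between subunit medians in MC38 (-0.033) ran from -0.0463 to 0.0132 when single libraries were left out. Mrpl42 was at 0.00147 when centred per chromosome, an alternative chosen for MC38 after seeing the data.

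In B16-F10 the 1 higher gene became 0 with a minimum of 0.1 FPKM, with no filter, with median-of-ratios scaling, robust variance, a replicate block or centring per chromosome, and 0 to 1 without single libraries. With library weights 1 gene was lower. Without wild-type libraries 3 and 4 there were 5 higher and 1 lower, and without libraries 1 and 2 there were 4 higher and 14 lower. Of all genes, 7.18% were higher and 5.17% lower in the first case, and 15.6% and 10.2% in the second. All genes called, 243 in the fit reported, were 140 with a minimum of 0.1 FPKM, 73 with no filter, 776 with library weights, 12 with a replicate block, 159 when centred per chromosome, 1349 and 2805 without the wild-type pairs 3 and 4 or 1 and 2, and 23 (without knockout library 2) to 414 (without knockout library 4) without single libraries. The difference between subunit medians (-0.022) was 0.00943 with library weights, 0.0205 and 0.0221 without those pairs, 0.0134 when centred per chromosome and -0.0191 to 0.00757 without single libraries. Where the text gives no measurement for these changes, the cause was not tested.

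No pairing by replicate number was seen. Deviations of same-numbered libraries had correlations of -0.288 to -0.066 in MC38 and -0.298 to 0.165 in B16-F10. So few pairs cannot exclude a pairing. The replicate block therefore bears on a shared number only. In MC38, 18 of the 32 falls and 4 of the 5 rises passed under every alternative run, Mrpl10 being the rise that did not under the block (limma adjusted p = 0.0572). For the 17 named genes that passed in MC38, 277 of 289 alternative values passed in the same direction, and for the 6 that did not pass, 101 of 102 did not, 7 of them with the other sign (Mrps12 and Mrps36). In B16-F10, Mrps16 passed under 7 of 20 alternatives, and for the 17 named genes that did not pass, 332 of 339 values did not, 14 of them, in 8 genes, with the other sign. FPKM carry no counts per gene, so the counting error of low genes such as Mrpl57 and Mrpl1 could not be given.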
